A study of Mus musculus with 7 samples.

Results

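Interferon-stimulated and nucleic acid sensing genes were examined in cancer-associated fibroblasts (CAFs) from mouse pancreatic tumors whose cancer cells did or did not carry a hairpin against Brca2. The set was a list of 51 gene symbols, chosen by name, and no measured value enters the rule. It held the antiviral effectors induced by interferon, the RNA and DNA sensors that start interferon production, and the transcription factors that link them. Of the 51 genes, 49 were in the table of 12771 genes (Tmem173 under its current symbol Sting1, Mb21d1 under Cgas), while Herc6 and Xaf1 were not analysed here. All 49 could be tested, all had a mean normalized count over 5, and 43 had one over 20.

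The tumors grew in the pancreas of 8-week-old C57BL/6 male mice injected with KPC cells, a mouse pancreatic cancer line. The KPC cells bore a lentiviral pLKO.1 vector with either shBrca2, against the DNA repair gene Brca2, or a non-targeting shControl. The tumors were taken 2 to 3 weeks after injection, and live CD45-/CD31-/EpCAM-/PDPN+ cells were sorted as CAFs. Their polyadenylated RNA was sequenced from the 3' end by MARS-seq, in 3 libraries of shControl CAFs, numbered 1, 2 and 4, and 4 of shBrca2 CAFs, numbered 1 to 4. The study's methods name 1 shRNA product for each arm and 1 parental cancer line. They do not give the number of hairpin sequences against Brca2. The fibroblasts belonged to the host and carried neither hairpin, so their own Brca2 transcript (10.3, 17.7 and 10.7 normalized counts in shControl, and 14.6, 12.2, 8.64 and 13.2 in shBrca2) does not check the knockdown. Libraries held between 1898679 and 5990579 counts.

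Type I interferon binds the receptor formed by IFNAR1 and IFNAR2, and the kinases JAK1 and TYK2 then act on STAT proteins. STAT2 and IRF9 are part of the complex ISGF3, which binds the interferon-stimulated response element (ISRE) in the promoters of many antiviral genes. Cytosolic DNA, which can come from damaged nuclei, is sensed by cGAS, whose product cGAMP activates the adaptor STING, while viral RNA is sensed by RIG-I (Ddx58) and MDA5 (Ifih1). Both routes lead through TBK1 and IRF3 to interferon itself. In pancreatic tumors, fibroblasts are among the stromal cells that can respond to interferon from neighbouring cells.

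The ISRE was read in the RefSeq promoters (GRCm38.p6, the assembly of mm10) of these genes, from 250 bases before the annotated start to 50 after it. Promoters of 36 of the 49 genes were in the reference. The core, searched on both strands as GAAA, any 2 bases and GAAA again, lay in 20 of the 44 promoters of these genes (45.5%), against 3.44% of all 32851 promoters of the reference. The 6 stretches that follow are shown because 4 belong to genes called lower in shBrca2 CAFs (Bst2, Ifit3, Isg15, Oas3) and 2 to genes that were not called and carry the same core (Ifit1, Gbp2). Each is written 5' to 3' on the strand of its gene, all of it before the start, with bases that match the core on either strand in capitals. Matches overlap in Bst2 (2 matches) and Isg15 (3 matches), while Ifit3 and Ifit1 hold 2 separate ones each. The stretches are chr8:71537547-71537642 (minus strand), chr19:34583333-34583456 (plus), chr4:156200835-156200936 (minus), chr5:120777685-120777774 (minus), chr19:34640745-34640853 (plus) and chr3:142620564-142620653 (plus). RefSeq also lists transcripts of Ifit3 that begin upstream of the start used here.
Bst2: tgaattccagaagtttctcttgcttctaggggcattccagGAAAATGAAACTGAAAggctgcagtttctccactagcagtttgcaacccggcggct
Ifit3: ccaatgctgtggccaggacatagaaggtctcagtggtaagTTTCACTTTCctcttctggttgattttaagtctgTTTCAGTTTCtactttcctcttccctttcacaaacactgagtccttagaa
Isg15: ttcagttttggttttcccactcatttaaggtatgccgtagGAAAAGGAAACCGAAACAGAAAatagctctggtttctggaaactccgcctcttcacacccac
Oas3: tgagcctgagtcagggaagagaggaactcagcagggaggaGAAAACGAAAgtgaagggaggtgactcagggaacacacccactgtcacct
Ifit1: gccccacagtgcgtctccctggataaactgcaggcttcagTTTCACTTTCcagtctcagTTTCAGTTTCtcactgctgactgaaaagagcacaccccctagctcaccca
Gbp2: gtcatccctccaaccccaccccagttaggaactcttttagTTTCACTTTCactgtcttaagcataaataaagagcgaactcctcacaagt

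To test whether interferon response genes differed between CAFs of shBrca2 and shControl tumors, all genes of the table were fitted with DESeq2 (likelihood ratio test). A gene was called where the adjusted p was under 0.1, the absolute log2 fold change over 0.5 and the mean normalized count over 5. Of the 49 genes, 10 were called lower (20.4%), against 5.27% of all genes tested, and 0 were called higher, against 3.77%. The 10 called by DESeq2 were Ifit3, Isg15, Oas2, Oas3, Cmpk2, Samhd1, Bst2, Ly6e, Ifi35 and Sp100. In GRCm38.p6, RefSeq places Ifit3 at chr19:34583119-34588982, Isg15 at chr4:156199424-156200818, Oas2 at chr5:120730333-120749886, Oas3 at chr5:120753098-120777684, Cmpk2 at chr12:26469117-26479837, Samhd1 at chr2:157097534-157135096, Bst2 at chr8:71534255-71537472, Ly6e at chr15:74955025-74959904, Ifi35 at chr11:101448412-101458701 and Sp100 at chr1:85649948-85709998. The quasi-likelihood test of edgeR called 9 lower (against 5.88%) and 0 higher (against 4.22%). These 9 left out Isg15, Oas3 and Ly6e (edgeR adjusted p 0.105, 0.141 and 0.146) and took in Cgas and Eif2ak2. The log2 fold change was below 0 for 42 of the 49 genes (85.7%), against 49.1% of all genes, and its median was -0.54, against 0.01 over all genes. With an unadjusted p under 0.05, 21 of the 49 were lower (42.9%, against 9.68% of all genes) and 0 were higher (against 8.04%). The 2 groups did not overlap for 10 of the 49 genes: shBrca2 was below every shControl library for 9 (18.4%, against 9.29% of all genes) and above for 1, Oasl1 (2.04%, against 7.78%).

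The number of calls rested on single libraries. It was 2 of 49 without shControl 4 (4.08%, against 3.27% of all genes), without shBrca2 1 (4.08%, against 2.77%) and without shBrca2 4 (4.08%, against 2.91%), a share close to that of all genes. It was 6 without shControl 1 (against 2.87%), 10 without shControl 2 (against 5.44%), 16 without shBrca2 2 (against 5.28%) and 12 without shBrca2 3 (against 5.28%). The 10 called genes stayed lower in each of these 7 fits and in 5 other fits of the data. They were called on these same libraries, so their direction had little room to change. Ifit3 and Oas2 lost their call only without shControl 4 (adjusted p 0.23 and 0.20 by DESeq2) among the 12 fits, and Bst2 only without shBrca2 1 or shBrca2 4. The other 7 called genes each lost it without shControl 4, without shBrca2 1 and without shBrca2 4, and Isg15, Oas3 and Ly6e lost it with edgeR as well. Further fits also removed calls. Of the 12 fits, Ifi35 and Sp100 were called in 8, Isg15 and Cmpk2 in 6, Samhd1 in 5, and Oas3 and Ly6e in 4.

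**Figure D1:**
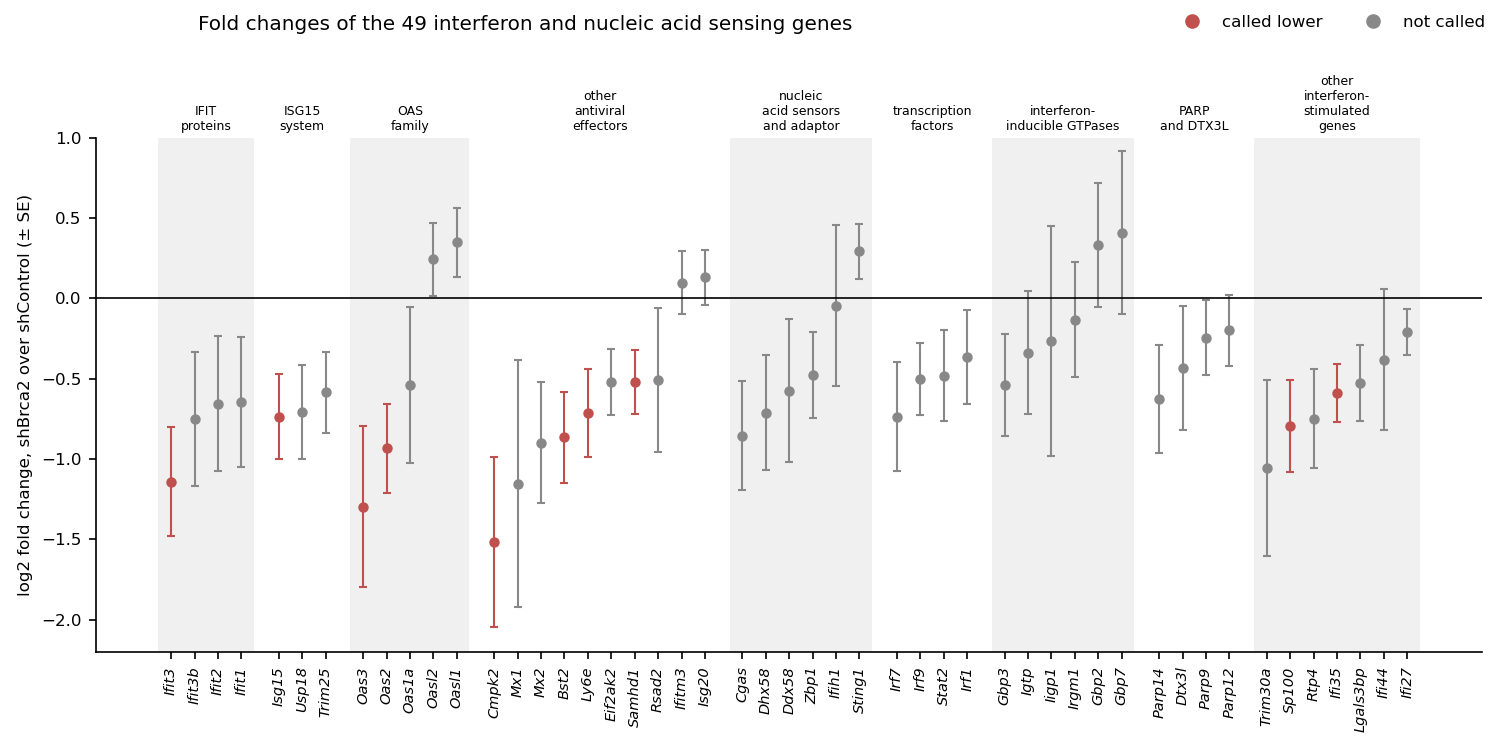
Log2 fold change of shBrca2 over shControl (vertical axis) with its standard error for the 49 genes, in role groups along the horizontal axis, with the 10 genes called lower in red and the 39 not called in grey. Most points lie below 0, from -1.52 for Cmpk2 to 0.41 for Gbp7.

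IFIT proteins bind viral RNA that lacks the cap modification of host transcripts and block its translation. Ifit3, which stabilizes the IFIT1 complex, measured 169, 159 and 325 normalized counts in shControl and 79.2, 142, 114 and 59.0 in shBrca2. The groups did not overlap, with shControl 4 far above the other controls. The log2 fold change was -1.14 ± 0.34 (SE), the lowest of the 4 IFIT genes, with a DESeq2 adjusted p of 0.0152. Ifit1 was not called at -0.64 (155, 62.0 and 142 in shControl, and 48.2, 124, 93.3 and 41.7 in shBrca2), nor were Ifit2 at -0.66 and Ifit3b at -0.75. Ifit3b, a near copy of Ifit3 beside it on chromosome 19, measured 25.6, 20.2 and 42.8 in shControl and 15.5, 21.6, 24.2 and 10.2 in shBrca2. Reads of these 2 paralogs may be split uncertainly between them.

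ISG15 is a ubiquitin-like protein that is joined to other proteins during the interferon response, and USP18 removes it and also dampens signaling at the interferon receptor. Isg15 measured 809, 1104 and 1001 normalized counts in shControl and 471, 821, 667 and 372 in shBrca2. Only shBrca2 2 reached the control range, just above shControl 1. The log2 fold change was -0.74 ± 0.26 (SE; DESeq2 adjusted p = 0.0621). In the reference annotation 31.1% of the exon bases of Isg15 are shared with another gene on the opposite strand. Usp18 measured 138, 143 and 135 in shControl and 74.9, 132, 74.3 and 53.9 in shBrca2. The groups did not overlap, but at -0.71 ± 0.29 (SE; DESeq2 adjusted p = 0.134) it was not called. Trim25, a ligase for ISG15 and for RIG-I, was at -0.59 and was not called either.

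The OAS enzymes make short oligoadenylates on double-stranded RNA, which switch on RNase L. Oas2 measured 178, 169.5 and 277 normalized counts in shControl and 106, 108, 154 and 72.2 in shBrca2, with no overlap and a log2 fold change of -0.93 ± 0.28 (SE; DESeq2 adjusted p = 0.0159). Oas3 measured 23.1, 51.9 and 54.5 in shControl and 11.2, 32.6, 17.3 and 7.11 in shBrca2, a log2 fold change of -1.30 ± 0.50 (SE; DESeq2 adjusted p = 0.0947). Here shControl 1 lay below shBrca2 2. Oas1a, at a mean of 14.2, was not called (-0.54). The OAS-like genes, which share the OAS fold, stood on the other side of 0. Oasl1, which restrains translation of Irf7, measured 69.2, 89.8 and 99.2 in shControl and 106, 111, 119 and 103 in shBrca2, so that all 4 shBrca2 libraries were above all controls. Its log2 fold change of 0.35 ± 0.22 (SE) was not called (DESeq2 adjusted p = 0.427). Oasl2 measured 310.1, 305 and 395 in shControl and 417, 534, 337 and 299.8 in shBrca2, a difference of 0.24 within the spread of the libraries (DESeq2 adjusted p = 0.67).

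Among 10 other antiviral effectors, 4 were called lower (40%, against 5.27% of all genes). Cmpk2, a mitochondrial nucleotide kinase encoded next to viperin, had the lowest fold change of the set at -1.52 ± 0.53 (SE; DESeq2 adjusted p = 0.0491). It measured 35.0, 15.2 and 27.2 normalized counts in shControl and 6.88, 16.3, 3.45 and 7.11 in shBrca2, on raw counts from 2 to 41. At these low counts shBrca2 2 was above shControl 2. Bst2, the tetherin that holds budding virus at the cell surface, measured 1488, 1905 and 1724 in shControl and 719, 1514, 908 and 598 in shBrca2. The log2 fold change was -0.87 ± 0.29 (SE; DESeq2 adjusted p = 0.037), and only shBrca2 2 reached the control range. Ly6e, a membrane-anchored inhibitor of coronavirus entry, measured 7899, 9155 and 9421 in shControl and 4092, 8853, 4667 and 3911 in shBrca2. Replicates 1, 3 and 4 of shBrca2 lay far below the controls and shBrca2 2 lay among them (log2 fold change -0.71 ± 0.27, SE; DESeq2 adjusted p = 0.094). Samhd1, which hydrolyzes deoxynucleotides and so starves reverse transcription, measured 207, 211 and 282 in shControl and 159, 181, 174 and 137 in shBrca2. The groups did not overlap, and the fold change was the smallest of the called genes (-0.52 ± 0.20, SE; DESeq2 adjusted p = 0.0952).

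The other 6 effectors were not called by the main DESeq2 fit. Mx2, a dynamin-like GTPase, measured 79.4, 45.5 and 58.4 in shControl and 22.4, 34.4, 58.7 and 20.3 in shBrca2 (-0.90 on the log2 scale, DESeq2 adjusted p = 0.144). Eif2ak2, the kinase PKR that halts translation on double-stranded RNA, measured 189, 225 and 261 in shControl and 155, 153, 193 and 130.1 in shBrca2 (-0.52, DESeq2 adjusted p = 0.107), and edgeR called it at an adjusted p of 0.0998 with a filter on low counts but not without one (0.104). Both were lower in 3 of 4 shBrca2 libraries than in every control. Ifitm3, which blocks fusion of virus in endosomes, was not lower at 0.10 (5656, 5487 and 4795 in shControl, and 4898, 7713, 5221 and 4902 in shBrca2). Isg20, an RNA exonuclease, was at 0.13, Rsad2, which encodes viperin, at -0.51, and Mx1 at -1.15 on a mean of 5.58 normalized counts. Of the exon bases of Ifitm3, 60.9% are shared with another gene on the opposite strand in the reference annotation.

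**Figure D2:**
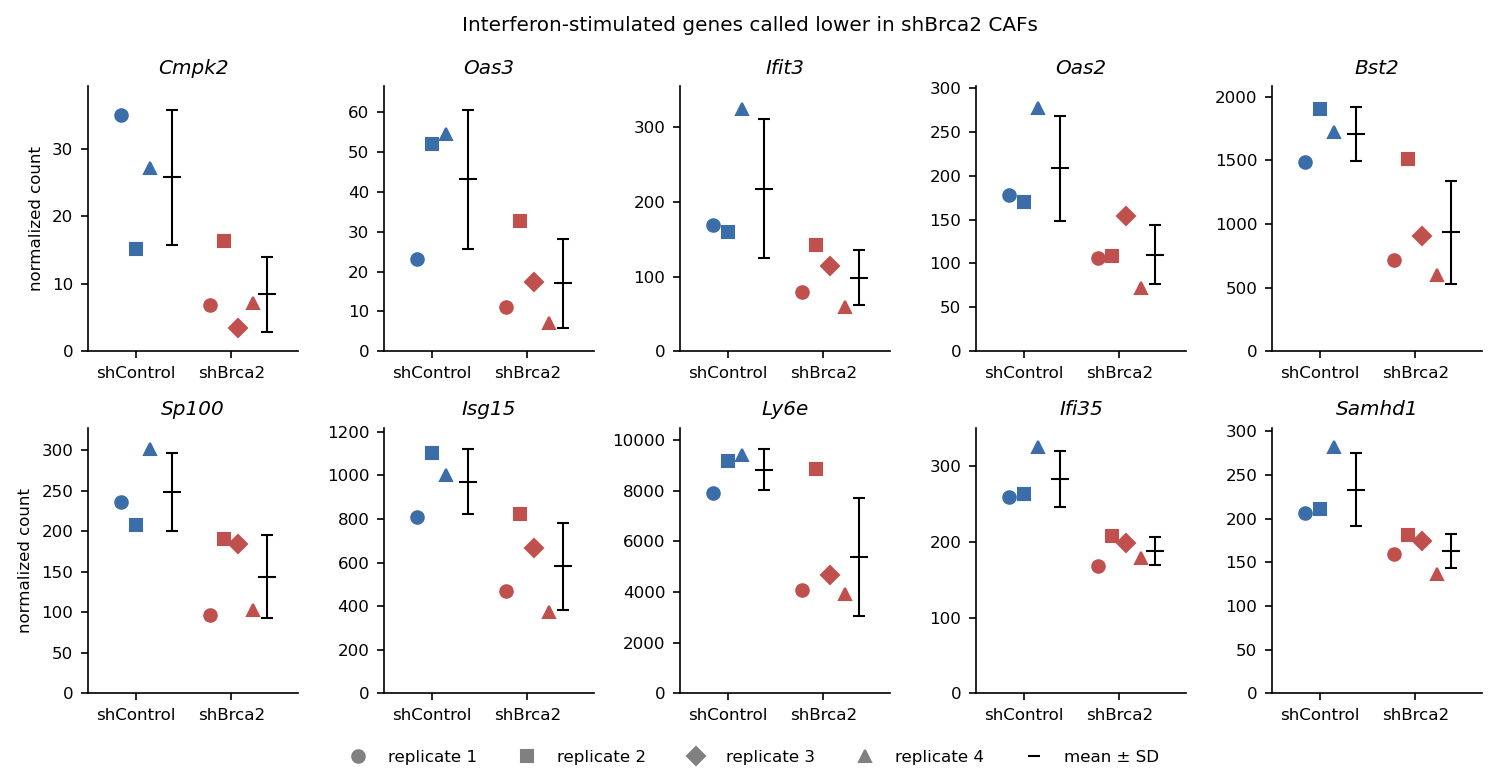
Normalized counts (vertical axis, from 0) of the 10 genes called lower, in each shControl library (blue, n = 3) and shBrca2 library (red, n = 4), with marker shapes for replicate numbers and black bars for the mean ± SD of each group. shBrca2 2 is the highest shBrca2 library for 9 of the 10 genes, and shBrca2 4 or 1 the lowest for 9 of them.

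The sensors and their adaptor gave 0 calls by DESeq2 among 6 genes, where 5.27% of all genes were called lower. Their median log2 fold change was -0.52, and 2 genes (Cgas and Dhx58) were lower at an unadjusted p under 0.05. Cgas, the DNA sensor, measured 46.1, 55.7 and 30.2 normalized counts in shControl and 26.7, 28.6, 19.0 and 20.3 in shBrca2. The groups did not overlap, and the log2 fold change of -0.85 ± 0.34 (SE) missed the threshold (DESeq2 adjusted p = 0.111). It was called by edgeR, and by DESeq2 with a minimum count of 10 in 3 libraries (adjusted p = 0.0945). DESeq2 also called it without shControl 4, the lowest control for this gene. Of its exon bases, 34.4% are shared with another gene on the opposite strand in the reference annotation. Sting1, the adaptor downstream of cGAS, measured 395, 543 and 404 in shControl and 606, 532, 516 and 529.5 in shBrca2. Every shBrca2 library was above shControl 1 and 4 but not all were above shControl 2, and the difference of 0.29 ± 0.17 (SE) was not called (DESeq2 adjusted p = 0.39).

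Among the RNA sensors, Ifih1 was at -0.05, with 11.1, 8.86 and 13.6 normalized counts in shControl and 14.6, 11.7, 6.91 and 9.15 in shBrca2. Ddx58 measured 18.8, 35.4 and 46.7 in shControl and 18.9, 30.3, 31.1 and 10.2 in shBrca2, a log2 fold change of -0.57 with overlapping groups (DESeq2 adjusted p = 0.568). Dhx58, or LGP2, a helicase that tunes both sensors, measured 50.4, 54.4 and 73.9 in shControl and 29.3, 50.1, 48.4 and 18.3 in shBrca2. Its groups did not overlap, and the fold change of -0.71 was not called (DESeq2 adjusted p = 0.268). Zbp1, which binds Z-form nucleic acid and can start necroptosis, measured 485, 615 and 638 in shControl and 299, 548, 537 and 284 in shBrca2 (-0.48, DESeq2 adjusted p = 0.348). In Zbp1, replicates 1 and 4 of shBrca2 were low and replicates 2 and 3 lay within the control range.

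All 4 transcription factors had fold changes below 0. The main DESeq2 fit and edgeR called 0 of them, where they called 5.27% and 5.88% of all genes lower. By DESeq2, 2 (Irf7 and Irf9) had an unadjusted p under 0.05. Irf7 was called by DESeq2 without shBrca2 2 and with the replicate number as a block. Stat2 was called with that block and without shBrca2 3, and Irf9 without shBrca2 3. Irf7, the factor that amplifies type I interferon production, measured 762, 894 and 1341 normalized counts in shControl and 392, 893, 782 and 332 in shBrca2 (-0.74 ± 0.34, SE; DESeq2 adjusted p = 0.20). Stat2 measured 299.8, 337 and 422 in shControl and 179.9, 255, 399 and 184 in shBrca2 (-0.48 ± 0.28, SE; DESeq2 adjusted p = 0.381). Irf9, the DNA-binding partner in ISGF3, measured 312, 305 and 394 in shControl and 191, 241, 326 and 200.2 in shBrca2 (-0.50 ± 0.22, SE; DESeq2 adjusted p = 0.182). In each of these factors replicates 1 and 4 were the lowest shBrca2 libraries, and shControl 4 was the highest control. Irf1, which responds to interferon gamma, measured 659, 447 and 732 in shControl and 267, 512, 686 and 443 in shBrca2, a difference of -0.37 with overlapping groups (DESeq2 adjusted p = 0.584). In the reference annotation, other genes, all on the opposite strand, share 46% of the exon bases of Irf1.

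The interferon-inducible GTPases attack the vacuoles of intracellular pathogens and respond chiefly to interferon gamma. They showed the smallest shift of the role groups, with a median of -0.20 on the log2 scale over 6 genes. The main DESeq2 fit and edgeR called 0 of them, where they called 5.27% and 5.88% of all genes lower. By DESeq2, 0 had an unadjusted p under 0.05. Gbp3 was called by DESeq2 without shBrca2 2. Gbp2 measured 353, 335 and 563 normalized counts in shControl and 335, 977, 528 and 258 in shBrca2. Igtp measured 327, 302 and 519 in shControl and 179.9, 502, 385 and 144 in shBrca2. Both genes spread widely within shBrca2, with shBrca2 2 highest and shBrca2 4 lowest, and their differences of 0.33 and -0.34 were within that spread (DESeq2 adjusted p 0.751 and 0.738). Gbp3, Gbp7, Irgm1 and Iigp1 ranged from -0.54 to 0.41.

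Of the 4 genes encoding ADP-ribosyltransferases and their partner DTX3L (Parp9, Parp12, Parp14, Dtx3l), fold changes ran from -0.63 to -0.20. The main DESeq2 fit and edgeR called 0 of them, where they called 5.27% and 5.88% of all genes lower. By DESeq2, 0 had an unadjusted p under 0.05. Parp14 was called by DESeq2 without shControl 2 and without shBrca2 3. Among 7 further interferon-stimulated genes, all below 0, Ifi35 and Sp100 were called lower (28.6%, against 5.27% of all genes). Ifi35, an interferon-induced leucine zipper protein, measured 259.7, 263 and 326 in shControl and 168, 208, 199 and 179 in shBrca2. It had a narrow spread and no overlap (-0.59 ± 0.18, SE; DESeq2 adjusted p = 0.0194). Other genes, on the opposite strand, share 24.5% of its exon bases in the reference annotation. Sp100, a component of PML nuclear bodies, measured 237, 207 and 302 in shControl and 96.4, 191, 185 and 103 in shBrca2. Its groups did not overlap (-0.79 ± 0.28, SE; DESeq2 adjusted p = 0.0618). Rtp4, a chaperone of receptors, measured 232, 172 and 224 in shControl and 102, 198, 123 and 73.2 in shBrca2. shBrca2 2 lay above shControl 2, and at -0.75 the gene was not called (DESeq2 adjusted p = 0.13). In the reference annotation 29.1% of the exon bases of Rtp4 are shared with other genes, most of them on the same strand. Ifi27 was lower in every shBrca2 library by a small margin (-0.21, not called), and Ifi44, Lgals3bp and Trim30a lay between -1.06 and -0.38 with overlapping groups.

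The set varied within groups as well as between them. A score was taken as the mean over the 49 genes of log2(normalized count + 1) minus the mean of the gene. It was 0.31, 0.10 and 0.50 in shControl 1, 2 and 4, and -0.46, 0.24, -0.02 and -0.68 in shBrca2 1, 2, 3 and 4. Group means were 0.30 ± 0.20 (SD, n = 3) and -0.23 ± 0.42 (SD, n = 4). The scores overlapped, because shBrca2 2 was above shControl 2. shControl 4 held the highest value for 24 of the 49 genes (49%, against 15.5% of all genes), and shBrca2 4 the lowest for 30 (61.2%, against 12.5%). All 49 genes were lower in shBrca2 4 than in shBrca2 2, and 46 were lower on average in shBrca2 1 and 4 than in shBrca2 2 and 3. This ordering within shBrca2 ran through genes that were called and genes that were not.

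**Figure D3:**
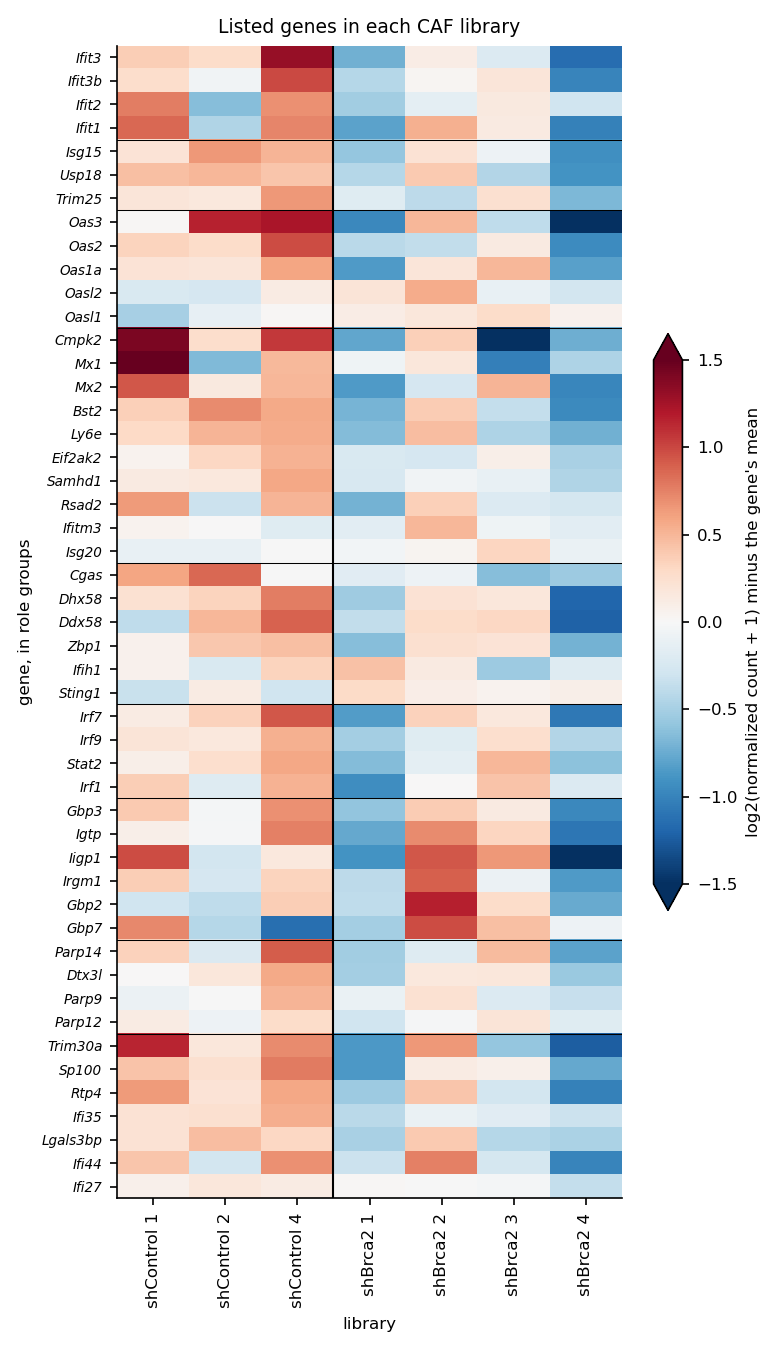
Log2(normalized count + 1) minus the mean of the gene (color scale, red high and blue low) for the 49 genes (rows, in role groups separated by lines) in the 3 shControl and 4 shBrca2 libraries (columns). shBrca2 1 and 4 are blue for most genes, while shBrca2 2, with a score of 0.24, resembles the controls.

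Genes of the interferon pathway outside the set were read from a second list of 124, of which 101 were in the table. Of these, 13 were called lower (12.9%, against 5.27% of all genes) and 1 higher (against 3.77%). Without shControl 4 the lower calls were 4 (3.96%, against 3.27% of all genes), a share close to that of all genes. They were 5 without shBrca2 1 (4.95%, against 2.77%), 6 without shBrca2 4 (5.94%, against 2.91%), 6 without shControl 1 (5.94%, against 2.87%) and 20 without shControl 2 (19.8%, against 5.44%). The interferons themselves, among them Ifnb1 and Ifng, and the nuclease Trex1 were not analysed here. Of the 10 receptor and kinase genes 1 was called lower (10%, against 5.27% of all genes) and 0 higher. The called gene was Ifngr1, the ligand-binding chain for interferon gamma. It measured 268, 163 and 204 normalized counts in shControl and 149, 142, 135 and 126 in shBrca2 (-0.62 ± 0.21, SE; DESeq2 adjusted p = 0.0495). Its groups did not overlap. The type I receptor chains Ifnar1 (0.15) and Ifnar2 (-0.19), the second gamma chain Ifngr2 (-0.15) and the STING-route genes Tbk1 (-0.10) and Irf3 (0.11) were not called. Jak1 was at -0.48 with a DESeq2 adjusted p of 0.0812, inside the limit on p but not on fold.

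Socs1, the inhibitor of JAK kinases that interferon induces as its own brake, had the lowest adjusted p among these genes. It measured 429, 362 and 525 normalized counts in shControl and 122, 237, 223 and 165 in shBrca2 (-1.24 ± 0.25, SE; DESeq2 adjusted p = 6.9e-05). The groups did not overlap, and all 4 shBrca2 libraries lay well below the lowest control. Socs3, a related brake acting mainly on gp130 receptors, was also called (-0.60, DESeq2 adjusted p = 0.0821), as were the PYHIN genes Ifi203 (-0.999, DESeq2 adjusted p = 0.0512) and Ifi205 (-1.17, DESeq2 adjusted p = 0.0159), which belong to a family of DNA-binding proteins. Of 22 genes in sensor signaling 2, Ifi203 and Ifi205, were called lower (9.09%, against 5.27% of all genes) and 0 higher (against 3.77%). With an unadjusted p under 0.05, 7 of the 22 were lower, against 9.68% of all genes. Of 10 genes that clear nucleic acids DESeq2 called 0, where 5.27% of all genes were called lower and 3.77% higher. Of these 10, 0 had an unadjusted p under 0.05, and the median log2 fold change was 0.18.

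Of 50 further interferon-stimulated genes, 8 were called lower (16%, against 5.27% of all genes) and 1 higher (against 3.77%). Ifi27l2a, a mitochondrial interferon-induced protein, measured 2977, 3096 and 3244 normalized counts in shControl and 820.1, 2090.2, 1164 and 650.5 in shBrca2 (-1.39 ± 0.33, SE; DESeq2 adjusted p = 0.00093). The controls were tight, and shBrca2 2 was the shBrca2 library nearest to them. The others called lower were Slfn5 (-1.42), Znfx1 (-1.01), Tor3a (-0.97), Ifitm1 (-0.86), Cxcl10 (-0.84), Tdrd7 (-0.74) and Helz2 (-0.72). Cxcl10, the chemokine that draws CXCR3-bearing T cells, measured 1923, 923.5 and 1681 in shControl and 481, 1237, 964 and 702 in shBrca2, so its groups overlapped (DESeq2 adjusted p = 0.0926). Nt5c3, a pyrimidine nucleotidase, was the gene called higher (0.82, DESeq2 adjusted p = 0.023), with 81.1, 50.6 and 89.5 in shControl and 162, 125, 112 and 123 in shBrca2.

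**Figure D4:**
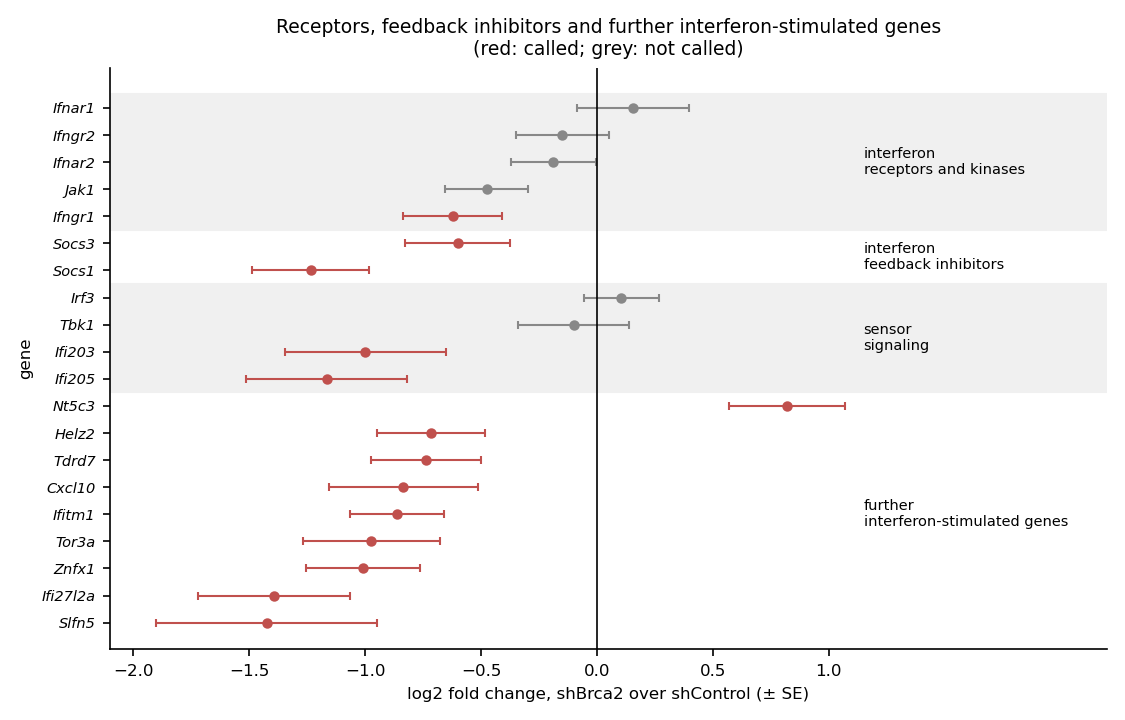
Log2 fold change of shBrca2 over shControl (horizontal axis) with its standard error for interferon pathway genes outside the set of 49, showing every gene called (red) and 6 genes of the receptor and STING routes that were not called (grey). The chains Ifnar1, Ifnar2 and Ifngr2 lie near 0, while Socs1 is at -1.24 and Slfn5 at -1.42.

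The ISRE core was found at similar shares in called and uncalled genes. It lay in 4 of 9 promoters of called genes (44.4%) and in 16 of 35 promoters of the others (45.7%). The 19 genes with a core had a median log2 fold change of -0.54 with 4 called, and the 17 with a promoter and no core had -0.52 with 4 called. Among the sequences printed above, Ifit3 and Ifit1 each hold 2 matches to the core and were at -1.14 and -0.64, and Gbp2, with 1 match, was at 0.33. Of 30 matches in these promoters, 24 lay wholly before the start. The gamma-activated site, searched as TTCNNNGAA, which reads the same on both strands, was in 11 of 44 promoters (25%), against 8.3% of all. It overlapped an ISRE core in 2 promoters. Such matches describe letters in the window and no binding was measured.

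**Figure D5:**
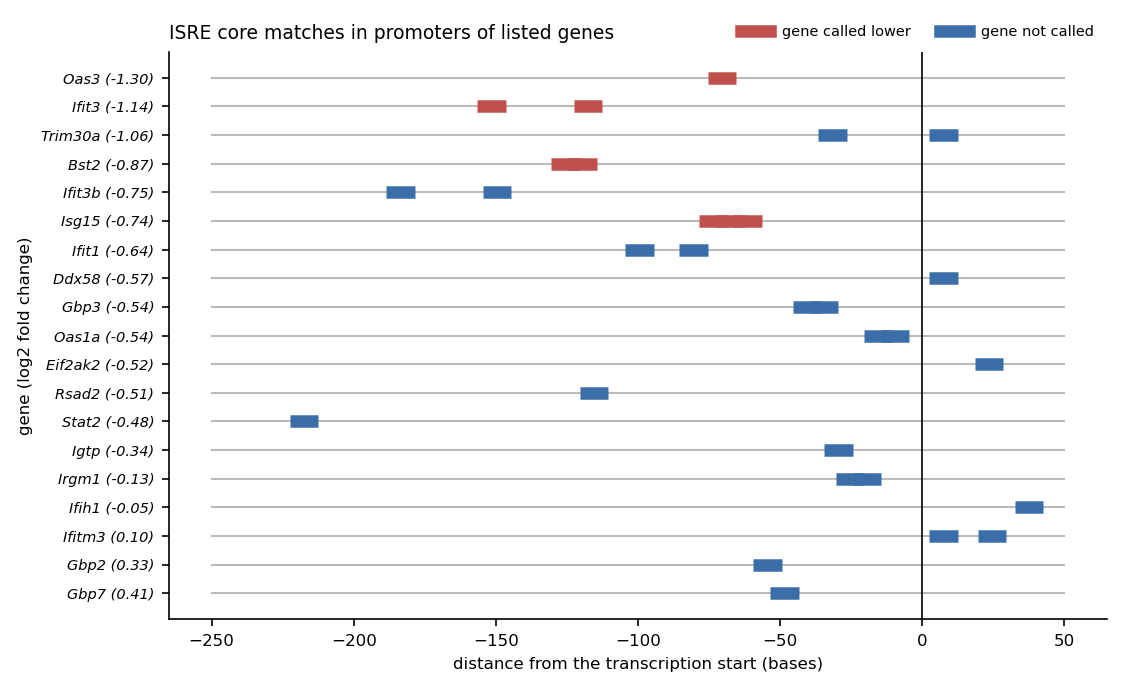
Positions of matches to the ISRE core (bars) relative to the transcription start (vertical line at 0) in the promoters of the 19 genes with a match, ordered by log2 fold change, with genes called lower in red and the others in blue. Matches of the 4 called genes lie between -156 and -57 bases, and those of the others lie on both sides of the start.

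The libraries matched the sort, with fibroblast markers high, but traces of other cells differed between the groups. The summed normalized counts of 10 fibroblast markers (10 of 10 in the table) were 125620 to 144438 in shControl and 100464 to 120032 in shBrca2, with Dcn (-0.77) and Lum (-1.18) called lower. Epithelial markers (6 of 7) summed to 411 to 1163 in shControl and 1467 to 2059 in shBrca2, with 4 keratins called higher. Macrophage markers (9 of 11) summed to 277 to 314 and 416 to 448, with Csf1r and C1qa called higher. Without Csf1r the macrophage sums overlapped (164 to 210.1 and 139.9 to 208), and Cd68, Lyz2 and Fcer1g were at -0.32, -0.26 and -0.11. Markers of B or plasma cells (3 of 8) summed to 26.6 to 91.4 in shControl and 0 to 12.8 in shBrca2, with Jchain and Mzb1 called lower, and Mzb1 was at 0 in shBrca2 3 and 4. Endothelial (4 of 7; 98.2 to 171 and 116 to 139), dendritic cell (1 of 7; 6.33 to 12.6 and 12.2 to 24.2), mesothelial (6 of 7; 782 to 2387 and 1725 to 2178) and pericyte sums (6 of 6; 368 to 443 and 365 to 514) overlapped, with Notch3 of the pericyte list called higher (1.12). Of the endothelial markers, 0 were called, but Pecam1 (-3.60) and Vwf (-1.11) were below every control. Their mean normalized counts were 3.87 and 4.22, under the limit of 5 for a call. Plvap was at -0.59 and Kdr at 0.51. Acinar sums (6 of 8; 149.8 to 247 and 99.8 to 162) overlapped through Cela1, which was called higher (0.95). The other 5 acinar markers summed to 73.0 to 202 in shControl and 11.2 to 56.0 in shBrca2, with Prss2 (-1.87), Cela2a (-2.85) and Cpa1 (-2.37) called lower. Markers of T or NK cells, Ptprc and Epcam were not analysed here. The part of these cells in the lower interferon response values was not tested, and in bulk libraries fewer responding cells and less RNA per cell cannot be told apart.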

How the data were processed

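MARS-seq libraries of sorted mouse CAFs were analysed, 3 from shControl and 4 from shBrca2 tumors. The study isolated polyadenylated RNA on oligo(dT) beads and sequenced 3' ends. The authors deposited raw read counts per gene. The submitters' processing notes name bcl2fastq, cutadapt, STAR 2.4.2a, HTSeq, DESeq2 and mm10. The gene annotation, strand setting and treatment of molecular identifiers are not given in the sources used here, so reads of overlapping antisense genes may not be told apart. Of the 49 genes 27 share exon bases with another gene in GENCODE vM39. Some of this sharing is on the same strand, where a strand setting does not separate reads. It covers 1129 of 4242 exon bases for Rtp4, 637 of 5990 for Gbp7 and 104 of 9714 for the called Sp100. Depth was 1898679 to 5990579 counts per library. Per the study each library came from a separate mouse, and p-values measure the spread between these mice.

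Counts were fitted in R 4.3.3 with DESeq2 1.42.0 (likelihood ratio test of group, median-of-ratios size factors, all 7 libraries, Benjamini-Hochberg adjustment over all genes), with the thresholds of the study's methods. Alternatives were edgeR 4.0.16 quasi-likelihood fits with TMM factors, with and without its expression filter, DESeq2 with TMM factors, with a minimum count of 10 in 3 libraries, with the replicate number as a block, and without each library in turn. Normalized counts are counts divided by size factors. Any 2 libraries differed by more than counting noise (mean chi-square per gene at least 3.35). This lowest value was between shBrca2 1 and shBrca2 4, and the next lowest was 8.01, between shBrca2 3 and shBrca2 4. The fits were tested on simulated data. The genes, the lists and the tests were chosen with earlier results of these data known. Values in every library are given for each called gene of the 49, for the 6 uncalled genes with the largest change at a mean over 20, and for fixed genes of each role. Library numbers were not used to pair samples in the main fit, and the study's methods do not say how the libraries were numbered. Promoters came from RefSeq (GRCm38.p6). Some items are not reported here.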

Additional observations from a re-analysis of the deposited data

Results flagged for a closer look

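Within the 4 shBrca2 libraries, 50 genes named in the report were tested for a library standing apart by Dixon's criterion, and 3 met it. Chance alone gives about 1 in 20 such groups. Ly6e measured 8853 normalized counts in shBrca2 2, against 3911 to 4667 in the other shBrca2 libraries. Ifitm3 measured 7713 in the same library, against 4898 to 5221. Ifngr2 measured 276.2 in shBrca2 1, against 345.6 to 359.2.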

How the results depend on the processing

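The 49 genes gave 8 to 11 lower calls under the 5 other fits with all or with the numbered libraries, and 0 higher calls under those and every omission of a library (against 1.89% to 4.78% of all genes). Leaving out 1 library at a time gave 2 to 16 lower calls among the 49 (2 without shControl 4, shBrca2 1 or shBrca2 4), a median log2 fold change of -0.71 to -0.39, 4 to 20 lower and 0 to 1 higher calls among the other pathway genes, and 354 to 695 lower and 261 to 610 higher calls over all genes. Same-numbered libraries did not deviate together (r = -0.09, -0.13 and -0.14 over 9062 genes), and each correlated better with another number. With the replicate number as a block, which also leaves out shBrca2 3, the counts were 8 lower among the 49, 8 lower and 0 higher among the other pathway genes, and 322 lower and 242 higher over all genes. The block turned Ifih1 to 0.0785. Without single libraries the log2 fold change changed sign for 5 of the 49 genes, Ifih1 (-0.24 to 0.11), Ifitm3 (-0.0884 to 0.16), Gbp2 (-0.17 to 0.61), Irgm1 (-0.61 to 0.08) and Iigp1 (-0.69 to 0.16). Among the other pathway genes named in the report, Ifngr2 (-0.31 to 0.00845) and Tbk1 (-0.26 to 0.10) changed sign. Pathway genes outside the set that are not named were not checked for this. The cause was not tested, and none of these 7 genes was called. Of the 49 genes, 44 kept their sign in all 12 alternatives, the 10 called genes among them. At 1898679 counts, shBrca2 3 was the shallowest library, and Cmpk2 had 2 reads there.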
